A study of Anopheles gambiae with 5 samples.

Results

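The genes described here are the serpins SRPN1 to SRPN10 of the malaria mosquito Anopheles gambiae, found in the deposited transcript assembly by the gene identifier given there. Of the 10 serpins listed, 9 had a gene model, out of 13102 annotated genes on the 6 chromosome sequences used. For SRPN6 (AGAP009212), 0 transcripts carried the identifier, so it has no gene model here and enters none of the counts below. The samples were chromatin of midguts immunoprecipitated for H3K27ac, chromatin of midguts immunoprecipitated for H3K27me3, an input library of midgut chromatin, and RNA of midguts and of salivary glands, with 1 library each. All came from pooled tissue of females of the Kisumu strain, aged 6 to 8 days and fed sugar solution, and none of the groups differed in genotype. The whole organ was used, so its cell types are mixed in every library. Each mark has 1 library and no replicate, so all values below are descriptions of these libraries with no test, and the error between biological samples is unknown. Read totals were not used here, so the precision that the depth gives each peak was not measured, and a gene without a peak is one where none was listed, not one shown to lack the mark. H3K27ac peaks were called with MACS and H3K27me3 islands with SICER, which joins windows of 200 bp, so a difference in extent between the marks cannot be told apart from a difference between the callers.

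Serpins are inhibitors of serine proteases. A serpin exposes a reactive loop that a target protease cuts, after which the protease is trapped in an inactive complex. In mosquitoes they restrain cascades of clip-domain proteases that lead to melanization, the deposition of melanin made by prophenoloxidases, and to Toll signalling. Acetylation of lysine 27 on histone H3 (H3K27ac) is found at active promoters and enhancers, and its trimethylation (H3K27me3) marks chromatin bound by Polycomb proteins.

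Of the 9 serpins with a model, a single one lay under H3K27ac and most lay under H3K27me3. A gene was counted as marked where a peak shared at least 1 bp with its body or the 200 bp on either side. The serpins had a median length of 4817 bp, against 2262 bp over all genes and 3739 bp over genes with H3K27me3. A longer gene has more bases that a peak can touch, and the shares of all genes were not matched for length. By this rule SRPN10 alone had H3K27ac, 1 of 9 serpins (11.1%) against 37% of all genes, and it had that mark alone, as did 33.7% of all genes. H3K27me3 lay on 6 of 9 serpins (66.7%), SRPN1, SRPN2, SRPN3, SRPN4, SRPN5 and SRPN7, against 28.8% of all genes, and all 6 had it alone, against 25.4% of all genes. SRPN8 and SRPN9 had neither mark, 2 of 9 (22.2%) against 37.5% of all genes, and 0 serpins had both, against 3.35% of all genes. These members are not independent points, since SRPN1, SRPN3 and SRPN2 lie in tandem and 1 island touches all 3. Of the other 6 serpins, 3 had H3K27me3.

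At the starts the picture was the same but for SRPN4. H3K27ac lay within 200 bp of the start of SRPN10, 1 of 9 serpins (11.1%) against 31.5% of all genes. H3K27me3 lay within 200 bp of the start of SRPN1, SRPN2, SRPN3, SRPN5 and SRPN7, 5 of 9 (55.6%) against 21.3% of all genes. The start of SRPN4 carried neither mark, and its nearest island began 6184 bp downstream, inside the gene. The 6 serpins with H3K27me3 had it over 47.5% to 100% of the body, with a median of 89.6%, beside a median of 80.3% over all genes with this mark. At least 50% of the body was covered in 5 of 9 serpins (55.6%) against 19.8% of all genes, and the whole body in 3 of 9 (33.3%) against 9.44% of all genes. A short gene is more easily covered whole. Those covered whole, SRPN3 (1569 bp), SRPN5 (1899 bp) and SRPN7 (1288 bp), are shorter than the median of all genes (2262 bp).

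**Figure D1:**
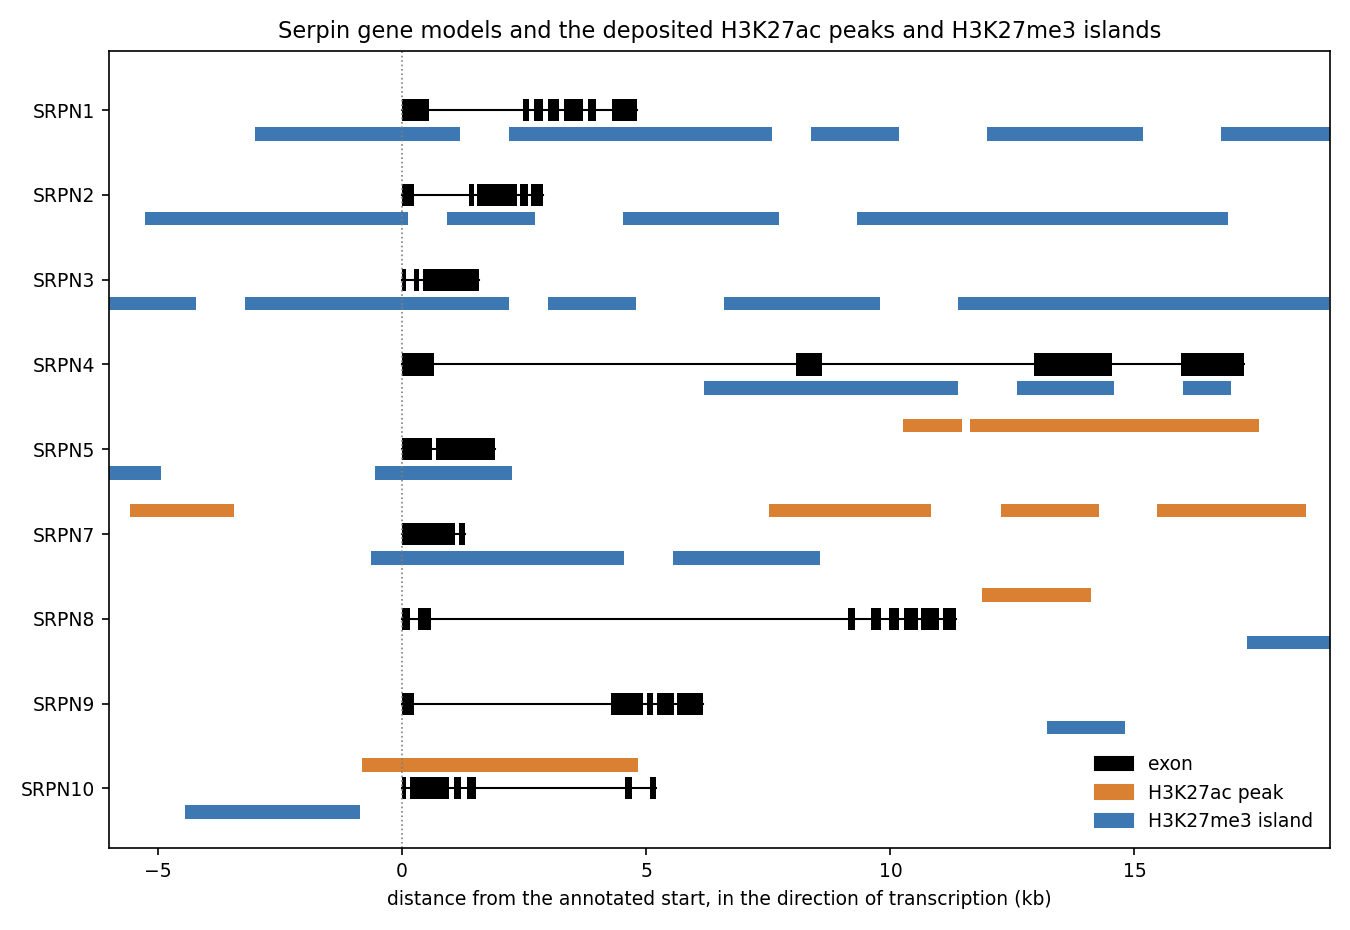
Models of the 9 serpins (black; boxes are exons of class "=" transcripts, lines introns) with H3K27ac peaks (orange, above) and H3K27me3 islands (blue, below), against the distance from the annotated start in kb, in the direction of transcription; peaks beyond the axis are not drawn. The start of SRPN10 lies inside an H3K27ac peak, those of SRPN1, SRPN2, SRPN3, SRPN5 and SRPN7 inside islands, and those of SRPN4, SRPN8 and SRPN9 under neither mark.

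SRPN1 (AGAP006909), SRPN3 (AGAP006910) and SRPN2 (AGAP006911) follow each other in this order on the plus strand of chromosome 2L. SRPN2 inhibits the clip-domain protease CLIPB9 and holds back melanization. In AgamP4 coordinates SRPN1 is at 2L 39889421-39894237 (4817 bp, 7 exons), SRPN3 at 2L 39894816-39896384 (1569 bp, 3 exons) and SRPN2 at 2L 39896875-39899752 (2878 bp, 5 exons). The cluster spans 10332 bp, of which 81.1% lay under 3 islands. The 578 bp between SRPN1 and SRPN3 and the 490 bp between SRPN3 and SRPN2 were covered in full, so the mark ran on from gene to gene at both junctions.

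The 3 islands divided the cluster at places that were not the ends of genes. The first, at 2L 39886401-39890599 (4199 bp), began 3020 bp upstream of the SRPN1 start and ended 1178 bp downstream of it. The second, at 2L 39891601-39896999 (5399 bp), took in exons 2 to 7 of SRPN1 and all of SRPN3 and ended 124 bp past the SRPN2 start. The third, at 2L 39897801-39899599 (1799 bp), lay inside SRPN2. In the H3K27me3 list of 12939 islands their scores ranked 3736, 3448 and 7620 from the top, which places the first and second in the upper part of the list and the third below its middle. Over the list this score followed island length (Pearson r = 0.941 across 12939 islands, which share 1 library and 1 caller), so here and below the rank of an island largely restates its length.

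Both breaks inside the cluster lay over first introns. In SRPN1 the break of 1001 bp fell inside intron 1, which is 1926 bp long, and 79.2% of the gene body was covered, with 100% of exonic bases and 62.3% of intronic bases. In SRPN2 the break of 801 bp ran from 125 to 925 bp after the start, over the end of exon 1 and much of intron 1, which is 1131 bp long. The SRPN2 body was 66.9% covered, with 82.5% of exonic and 48.8% of intronic bases. Exons 2, 3 and 4 of SRPN2 lay under the mark in full, exon 1 over 51.6% of its length and exon 5 over 35.4%. No islands of the whole list are closer together than 801 bp, so this break is as narrow as a break in the list can be. SRPN3, between them, was covered over 100% of its body.

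**Figure D2:**
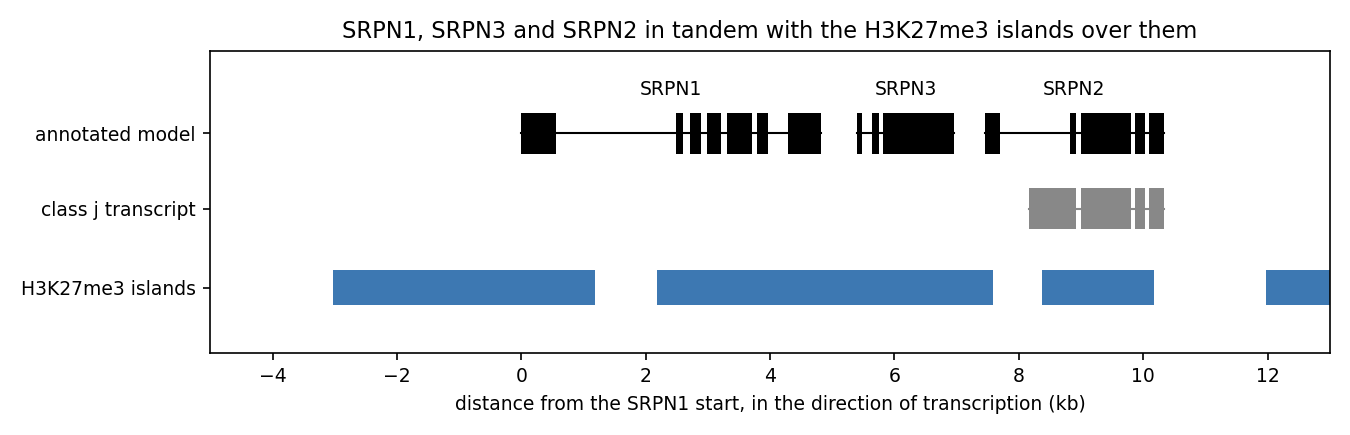
Annotated models of SRPN1, SRPN3 and SRPN2 (black boxes are exons), the class j transcript of SRPN2 (grey) and H3K27me3 islands (blue), against the distance from the SRPN1 start in kb. The islands run across both junctions between genes and break over the first introns of SRPN1 (1001 bp) and SRPN2 (801 bp), where the class j transcript of SRPN2 starts.

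Beside the cluster the nearest genes on both sides had H3K27me3, and H3K27ac began at the second gene to the left. The nearest annotated gene on the left, AGAP006908, lay 11291 bp from SRPN1 and was 47.8% covered by H3K27me3. The nearest on the right, AGAP006913, lay 49095 bp from SRPN2 and was 57.6% covered. With AGAP006914 these make 6 consecutive genes with H3K27me3 alone, over 94519 bp. Of 1573 such runs of genes in the genome, single genes included, 78 (4.96%) held at least as many. This is a share of runs and not of marked genes, of which long runs hold more. To the left of AGAP006908 lay AGAP006907, 30696 bp from SRPN1, with H3K27ac over 100% of its body, and AGAP006906, with H3K27ac over 14.6%. The nearest H3K27ac peaks ended 30410 bp to the left of the cluster and began 159340 bp to its right, which leaves 200082 bp free of H3K27ac. Of the 6633 intervals between consecutive H3K27ac peaks, 285 were 200000 bp or longer, a limit chosen after this interval was seen. These are counts of intervals, and the share of sequence that lies in long ones is larger. Within 10000 bp on each side of their starts, SRPN2, SRPN3 and SRPN1 had 74.0%, 73.0% and 67.1% of bases under H3K27me3 and 0 under H3K27ac. Over the starts of all genes the medians were 6.99% for H3K27me3 and 8.48% for H3K27ac.

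SRPN5 and SRPN7 resembled SRPN3 in that the whole gene lay inside 1 island, and these are the 3 shortest serpins here. SRPN5 (AGAP009221) is at 3R 28858149-28860047 on the plus strand (1899 bp, 2 exons). Its island, at 3R 28857601-28860399 (2799 bp), began 548 bp before the start and ended 352 bp past the end of the gene. The median length of islands in the list was 2399 bp. The island ranked 6168 of 12939 by score, close to the middle of the list.

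Next to SRPN5 the marks changed within a few genes. On the left AGAP009220, 4807 bp away, was 90.9% covered by H3K27me3, under a separate island. On the right AGAP009222, 3299 bp away, had neither mark, and the genes after it, AGAP009223 and AGAP009224, were 92.1% and 86.5% covered by H3K27ac. The nearest H3K27ac peak began 10252 bp downstream of the SRPN5 start.

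SRPN7 (AGAP007693) is at 2L 49090665-49091952 on the minus strand (1288 bp, 2 exons). Its island, at 2L 49087401-49092599 (5199 bp, rank 2795 of 12939), reached 647 bp upstream of the start and 3264 bp past the end of the gene. This island also touched AGAP007690 and AGAP007691, which lie past the 3′ end of SRPN7 on the opposite strand. AGAP007691 was 61.9% covered by H3K27me3, and AGAP007692, which follows, 96.1%. AGAP007690, which contains both of them, had both marks, with 47.5% of its body under H3K27ac and 39.6% under H3K27me3. There the marks met: an H3K27ac peak shared 1037 bp with the island next to that of SRPN7.

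Upstream of SRPN7 the nearest H3K27ac peak lay 3452 bp from the start, the shortest such distance among the 6 serpins with H3K27me3. It covered AGAP007696 in full. Within 10000 bp on each side of its start SRPN7 had 23.1% of bases under H3K27ac and 41.0% under H3K27me3. SRPN5 had 0 and 23.0% in the same window, so SRPN7 was the one H3K27me3 serpin with H3K27ac in that window.

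SRPN4 (AGAP009670) differed from the other 5 marked serpins in that its start and first exon were free of H3K27me3. It is the longest serpin here, at 3R 38137217-38154470 on the plus strand (17254 bp). Its 3 islands all lay inside the gene, at 3R 38143401-38148599 (5199 bp), 38149801-38151799 (1999 bp) and 38153201-38154199 (999 bp). By score they ranked 2790, 4979 and 9414 of 12939, in the order of their lengths. They covered 47.5% of the body, 76.6% of exonic and 38.4% of intronic bases.

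Along SRPN4 the islands fell on the later exons. Exon 1 (652 bp) had 0% of its bases under H3K27me3 and exon 2 (544 bp) 100%. The gene has 2 alternative last exons: that of isoform RA (1604 bp) was covered over 100%, and that of isoform RB (1308 bp) over 76.4%. Of the breaks between the islands, the first (1201 bp) lay in intron 2 of both isoforms and the second (1401 bp) lay past the end of RA, mostly in intron 2 of RB. None of the 3 nearest genes on each side had H3K27me3, and 2 of these 6 had H3K27ac. The nearest H3K27ac peak was 75696 bp from the SRPN4 start.

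In all 3 serpins that H3K27me3 covered in part, SRPN1, SRPN2 and SRPN4, exons were covered more than introns. This was so in 57.2% of the 2378 partly covered genes with introns, whose median coverage was 69.6% of exonic and 44.5% of intronic bases. The direction is therefore the commoner one in the genome.

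**Figure D3:**
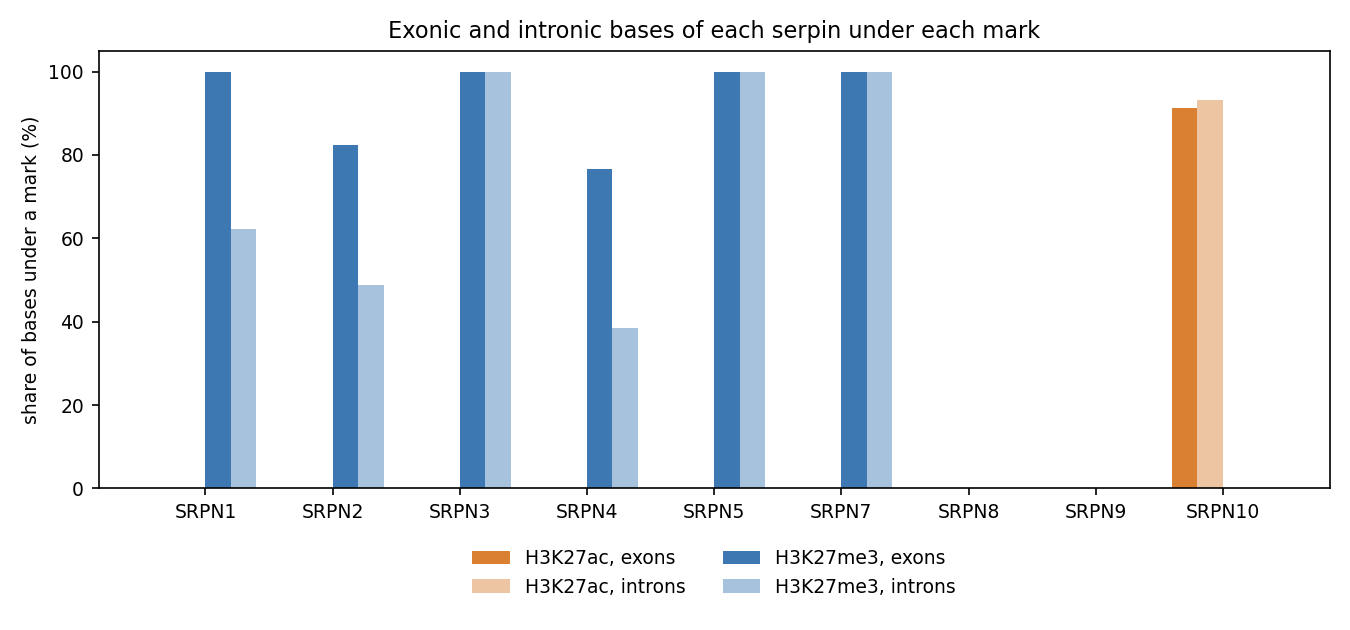
Share of exonic (dark) and intronic (light) bases of each serpin under H3K27ac (orange) and H3K27me3 (blue), in percent; 1 library per mark, so there are no error bars. Exons exceed introns in SRPN1 (100% and 62.3%), SRPN2 (82.5% and 48.8%) and SRPN4 (76.6% and 38.4%), SRPN10 is covered alike in both by H3K27ac (91.4% and 93.2%), and SRPN8 and SRPN9 have no covered bases.

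SRPN10 (AGAP005246) carried H3K27ac over nearly its whole length. This gene makes several inhibitors through alternative last exons that encode the reactive loop, and it is known for its expression in midgut cells invaded by Plasmodium. It lies on the minus strand of 2L. Its peak, at 2L 12996523-13002159 (5637 bp), ranked 117 of 6639 by score. The peak began 815 bp upstream of the start and ended 4821 bp downstream of it, and it covered 91.4% of exonic and 93.2% of intronic bases. The far 3′ end was the uncovered stretch of the gene. SRPN10 was thus the 1 serpin of 9 (11.1%) with at least 50% of its body under H3K27ac, against 15.4% of all genes, and 0 serpins were covered whole, against 5.18% of all genes.

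The peak covered 2 of the 3 last exons of SRPN10. The 3 isoforms with annotated intron chains share their first 3 exons, of 75, 798 and 142 bp, and each ends in an exon of its own. The last exons of RA (2L 12999842-13000014, 173 bp) and RC (2L 12996641-12996774, 134 bp) were covered over 100%. The last exon of RE (2L 12996143-12996267, 125 bp), the one farthest from the start, had 0% under the peak. All 3 isoforms start at the same base, so the mark at the start does not tell them apart.

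An H3K27me3 island stood directly upstream of the SRPN10 peak. It spanned 2L 13002201-13005799 (3599 bp, rank 5201 of 12939), its near edge was 857 bp from the SRPN10 start, and 41 bp separated it from the H3K27ac peak. Of all 6639 H3K27ac peaks, 17 (0.256%) had an island at most 100 bp away without sharing a base with one, and 154 (2.32%) shared bases with one. The median distance to the nearest island over the peaks that shared none was 14840 bp. Edges of islands fall on a grid of 200 bp windows, so a distance of 41 bp is below the resolution of the island calls. At that resolution the 17 peaks near an island cannot be told apart from the 154 that shared bases with one. The limit of 100 bp was not among the planned settings. The island touched 0 gene bodies. The genes beside SRPN10 were distant: AGAP005245, 16050 bp away, had H3K27ac over 10.4% of its body, and AGAP005247, 61521 bp away, over 64.9%.

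**Figure D4:**
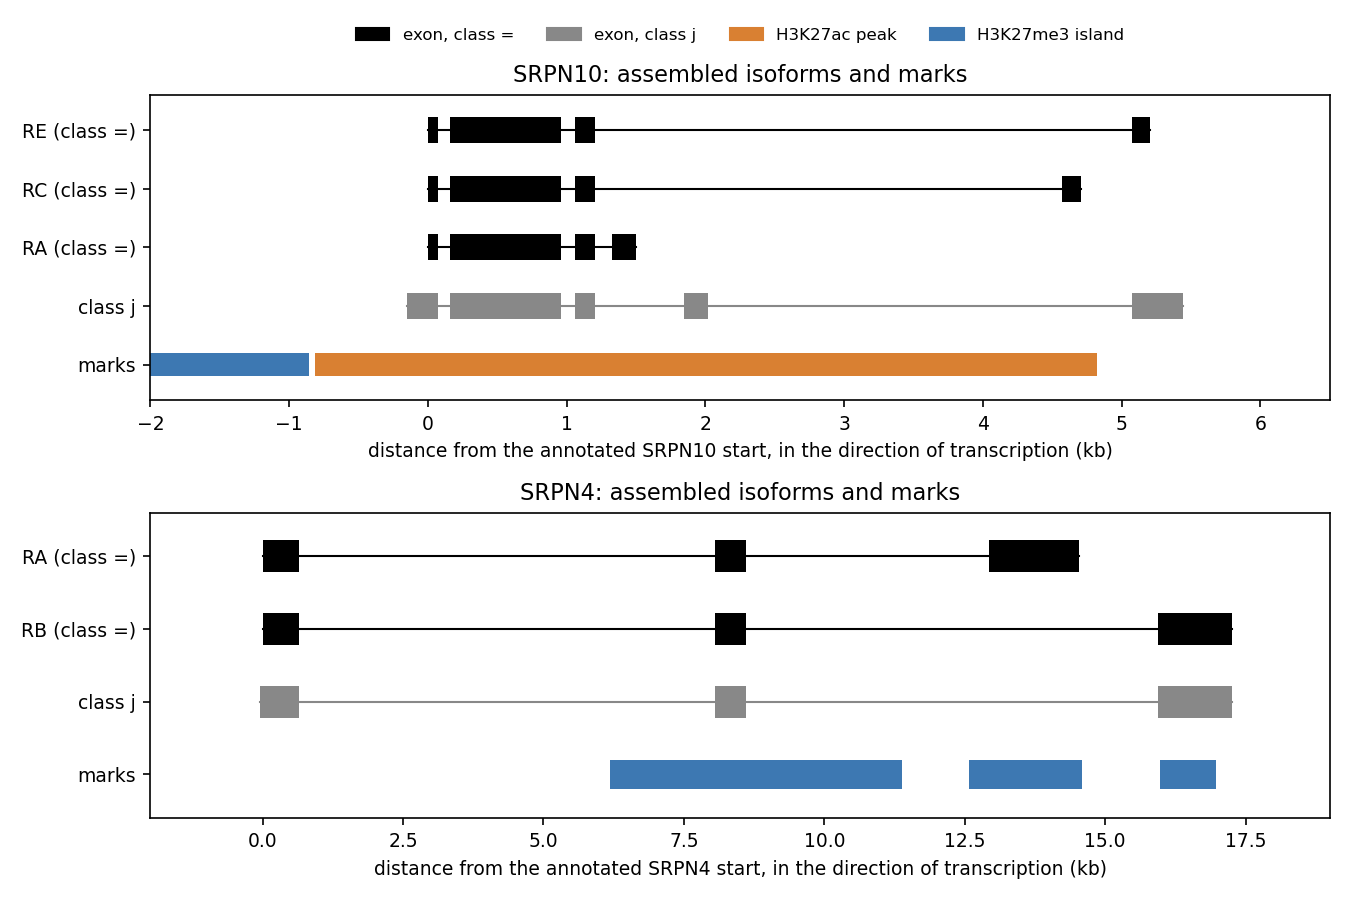
Assembled isoforms of SRPN10 (top) and SRPN4 (bottom), with class "=" exons in black and class j exons in grey, above the H3K27ac peak (orange) and H3K27me3 islands (blue), against the distance from the annotated start in kb. The SRPN10 peak covers the last exons of RA and RC and stops before that of RE, and the SRPN4 islands cover exon 2 and both alternative last exons but not exon 1.

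SRPN8 and SRPN9 had 0 bases under either mark. SRPN8 (AGAP003194) is at 2R 33744972-33756314 on the minus strand (11343 bp, 8 exons). Its intron 2, of 8547 bp, holds AGAP003195 and AGAP003196 on the opposite strand. Since both lie inside SRPN8, their lack of either mark restates that of SRPN8. An H3K27ac peak stood 542 bp past the 3′ end of SRPN8. This peak, at 2R 33742198-33744430 (2233 bp, rank 1023 of 6639), lay over AGAP003193, 108 bp from SRPN8, and AGAP003192. The island nearest to its start lay 8287 bp upstream, and the one nearest to its body 5973 bp away, past the 3′ end.

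SRPN9 (AGAP003139) is at 2R 33148444-33154607 on the minus strand (6164 bp, 5 exons). The nearest island lay 7045 bp from its body and the nearest H3K27ac peak 14616 bp, both past its 3′ end. AGAP003138, which ends 45 bp from the 3′ end of SRPN9, had both marks, over 9.65% (H3K27ac) and 9.90% (H3K27me3) of its body, and AGAP013465 inside it was 72.7% covered by H3K27me3. On the 5′ side AGAP003140 had neither. Within 10000 bp on each side of their starts SRPN8 had 8.57% of bases under H3K27me3 and SRPN9 had 0, and H3K27ac covered 0 in both.

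Among the 3 genes on each side, serpins shared the mark state of their neighbours about as often as other genes did. Neighbours were taken in order of gene start along the chromosome, so a nested gene can come before a nearer one. The state is H3K27ac alone, H3K27me3 alone, both or neither. With 3 genes on each side, 23 of 54 pairs (42.6%) of a serpin and a neighbour had the same state, against 45.3% of pairs over all genes. For the 6 serpins with H3K27me3 it was 17 of 36 pairs (47.2%), against 42.6% for all genes with H3K27me3 alone. With 1 gene on each side 12 of 18 pairs (66.7%) of serpins matched, against 53.2% over all genes, and for serpins with H3K27me3 8 of 12 (66.7%), against 52.9%. With 5 genes on each side 33 of 90 (36.7%) matched, against 42.1% over all genes, and for serpins with H3K27me3 22 of 60 (36.7%), against 38%. The tandem serpins are each other's neighbours and so enter these counts more than once, each time as a match. AGAP003195 and AGAP003196 lie inside SRPN8 and count as its neighbours. Their match with SRPN8 was fixed by that position. Without pairs of one listed serpin with another, 35.4% of the pairs with 3 genes on each side matched, a value chosen after seeing the data. No such value was computed for the serpins with H3K27me3 or with 1 or 5 genes on each side. Those shares therefore include matches within the tandem cluster. The neighbours differed by locus. None of the 6 neighbours of SRPN4 had H3K27me3. Genes with H3K27ac alone stood within 3 places of every serpin with a model except SRPN2.

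**Figure D5:**
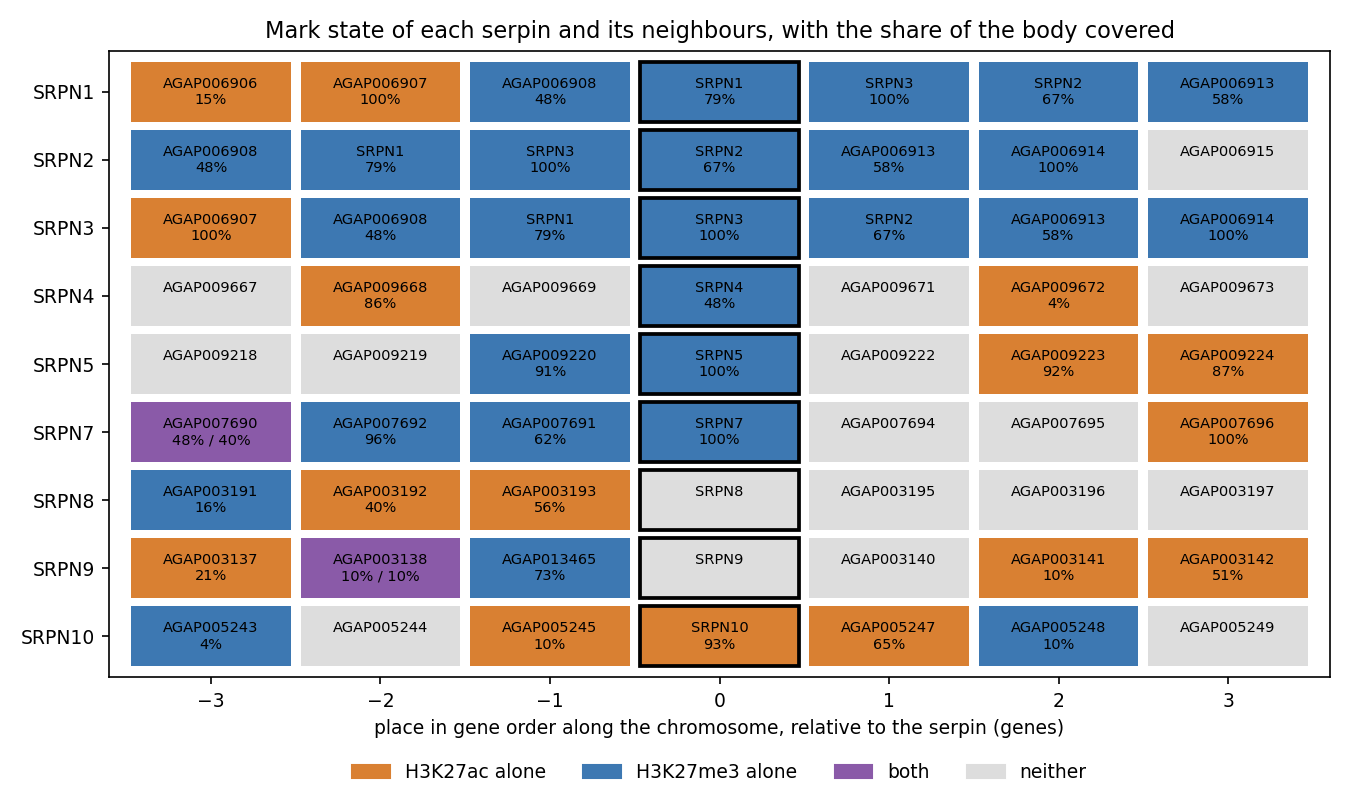
Mark state of each serpin (framed, place 0) and of the 3 genes on each side in gene order along the chromosome, with the share of each gene body under the mark in percent (H3K27ac, then H3K27me3, where both are present). SRPN1, SRPN3 and SRPN2 sit in a run of 6 genes with H3K27me3, while 0 of the 6 neighbours of SRPN4 have it.

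The assembly merges midgut and salivary gland RNA and gives no abundance, so an isoform cannot be placed in either tissue and the tissue labels were not checked against marker genes. Its class codes compare each transcript with the annotation: "=" matches every intron of an annotated transcript, "j" shares at least 1 junction but not all introns, and "x" overlaps exons of a gene on the opposite strand. Class "=" transcripts were listed for all 9 serpins, 12 in total, also for those with H3K27me3. Of the 13496 class "=" transcripts in the assembly 94.7% carry a coding identifier and class j transcripts carry none, so a listing in class "=" was not read as expression.

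Class j isoforms were assembled for SRPN2, SRPN4, SRPN8 and SRPN10, 1 each, which is 4 of 9 serpins (44.4%) against 28.2% of all genes. More than 1 class "=" transcript was listed for SRPN4 and SRPN10, 2 of 9 (22.2%) against 8.14% of all genes. With classes "=" and j together, serpins had a mean of 1.78 isoforms and all genes 1.52. Both serpins with several class "=" isoforms differ in their last exon and share their start.

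The class j isoform of SRPN2 began 713 bp downstream of the annotated start, inside the 801 bp break between islands. It was the one class "=" or j isoform of the tandem cluster with no mark within 200 bp of its start. The start lies at 39897588 and the next island begins at 39897801, close to the 200 bp limit. Island edges fall on a grid of 200 bp windows, and joining islands up to 1500 bp apart closes the break. An unmarked start was therefore not resolved here. The first exon of this isoform, of 758 bp, runs into the annotated exon 2 and was covered over 71.9%. All 3 of its introns are annotated ones.

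The class j isoform of SRPN10 began 152 bp upstream of the annotated start, still under the H3K27ac peak. It held an exon absent from the class "=" isoforms, at 2L 12999324-12999498 (175 bp), which was covered over 100%, and then ended in the region of the RE exon with an exon of 367 bp that had 0% under the peak. Of its 4 introns, 2 were not among those of the class "=" isoforms.

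The class j isoform of SRPN4 had 60.5% of its exonic bases under H3K27me3, against 76.7% in RA and 61.6% in RB. It began 41 bp upstream, ended in the RB exon and entered exon 2 at 38145277, 1 bp later than the annotated isoforms, and its start had no mark within 200 bp. The class j isoform of SRPN8 had 2 exons, began 354 bp upstream and carried an exon 2 of 749 bp, against 278 bp in the annotated isoform. Neither of its exons lay under a mark.

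On the strand opposite to the SRPN1 cluster the assembly held a class x transcript given the SRPN1 identifier, 1 of 9 serpins (11.1%) against 1.56% of all genes. It ran over 45871 bp on the minus strand, at 2L 39878502-39924372, with 3 exons of 977 bp in total. Its exons shared 0 bases with those of SRPN1, SRPN2 or SRPN3, so the exon overlap that class x stands for was not found in these genes. The exons had 0 bases under either mark. A transcript of class u, the code for sequence outside annotated genes, lay 2554 bp upstream of SRPN1, at 2L 39886205-39886866 (662 bp), with 466 bp under the first island. Strand is as the assembly gives it.

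Among the targets of the cascades that serpins restrain, the prophenoloxidases had marks like those of most serpins. Of PPO1 to PPO9, the enzymes that make melanin, 7 had H3K27me3 alone, against 25.4% of all genes, over 41.8% to 92.7% of the body with a median of 71.3%, and 6 had it at the start, against 21.3% of all genes. PPO3, PPO4, PPO6, PPO7, PPO8 and PPO9 carry closely spaced identifiers (AGAP004975 to AGAP004981), so they may not be independent points. The highest was PPO8, at 92.7%, and PPO3 and PPO5 had neither mark. CACTUS, the inhibitor of the Toll pathway, was covered by H3K27ac over 100% of its body. REL1, the transcription factor it holds back, had neither mark. Of these 11 genes, 1 had H3K27ac, and of the serpins 1 of 9 (11.1%), against 37% of all genes.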

How the data were processed

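Midgut chromatin was immunoprecipitated for H3K27ac and H3K27me3 in 1 library each, with a midgut input. The authors mapped reads with Bowtie 1.0.0 to AgamP4 and deposited a score from MACS 1.4 for each H3K27ac peak. For each H3K27me3 island from SICER (version not given in the sources used here) they deposited a value, called its score here. The column used as the H3K27me3 score is a whole number whose definition is not stated, so both scores served only as ranks within their list. TopHat2 2.0.10 and Cufflinks 2.1.1 gave the merged transcripts, deposited as positions (score column not used).

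Gene models were class "=" transcripts, else class j, else o. Overlaps were computed with Python 3.11.15, numpy 2.4.6 and pandas 2.3.3 and tested on simulated data; scipy 1.17.1 gave the intervals used for sensitivity and matplotlib 3.10.9 the plots. Flanks and promoters were 200 bp on each side. Positions count from 1, and peak length is listed end minus listed start. Distances to a start are differences of positions.

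The genes named are the listed serpins, the nearest genes or genes sharing a peak, and a pathway list of PPO1 to PPO9, CACTUS and REL1. Members and lists were chosen with earlier results of these data known. Alternatives varied flanks, windows, scores, island length, gene models and neighbours, and joined islands and the removal of serpin neighbours were added after seeing the data. The input library, expression levels and promoter motifs were not analysed here.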

Additional observations from a re-analysis of the deposited data

How the results depend on the processing

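Of 53 alternative values, 48 stayed within their limits, which were 1.5-fold for a count of serpins or isoforms and the 95% Wilson interval for a share, taking windows of 200 bp or gene pairs as its units. Some of the 48 could not move, so this tally overstates stability. SRPN1, SRPN3, SRPN5, SRPN7 and SRPN9 have no class j or o transcript, so adding those classes repeats their main values. Joining islands cannot raise a body already covered over 100%. A change of direction against all genes was not counted among them. With flanks of 1000 bp, 2 serpins had H3K27ac instead of 1, the second being SRPN8, whose 3′ end is 542 bp from a peak, and 7 had H3K27me3, the added one being SRPN10, whose start is 857 bp from an island. Where islands up to 1500 bp apart were joined, an alternative chosen after seeing the data, H3K27me3 covered 100% of SRPN1, 94.7% of SRPN2 and 62.6% of SRPN4, since the breaks inside these genes are shorter than that. With 1 gene on each side, 66.7% of neighbours had the state of the serpin, against 42.6% with 3. The first value lay above that of all genes (53.2%) and the second below it (45.3%). For serpins with H3K27me3 the value lay above all genes with 3 genes on each side (47.2% against 42.6%). With 5 it lay below (36.7% against 38%). Matches of the tandem serpins with each other enter all these values. No value without them was computed for serpins with H3K27me3. Under the other alternatives the count of serpins with H3K27me3 was 5 or 6. At a start it was 5, or 6 with 1000 bp on each side. No paired analysis was possible because each mark has 1 library and no result comes from a test, and no library could be left out. How weak a mark could be and still be listed at this depth was not measured, since read totals were not used.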

Other observations

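The assembly used here gives no position for SRPN6, so the stretch between the genes whose identifiers come before and after its own was measured as a stretch of sequence, without placing SRPN6 in it. Between the end of AGAP009211 and the start of AGAP009213, at 3R 28811322-28824547 (13226 bp), H3K27ac covered 27.7% of bases and H3K27me3 1.11%. The H3K27ac lay in 1 peak, at 3R 28816481-28820137 (3657 bp), whose score was at percentile 91.5 of its list. A class j transcript given the AGAP009211 identifier ran into this stretch as far as 28818227, with 2475 exonic bp there, of which 133 bp lay under the peak. These are values of the stretch and not of a serpin, so the count of serpins with H3K27ac covers only the 9 with a model.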
